A study of Mus musculus with 55 samples.

Results

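The genes described here are 7 that handle thyroid hormone in the brain or respond to it: Slco1c1, Dio2, Crym, Thra, Thrb, Hr and Klf9. They were found by symbol among the 55487 genes of the count table, and all 7 were among the 16168 genes with enough reads to test. The set was chosen by an earlier result on these same samples, the higher level of Dio2 in knockout mice in diestrus. Every comparison that uses the knockout diestrus mice is therefore given as a description, with no test.

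Thyroid hormone reaches the brain largely as the prohormone T4, which the transporter Slco1c1 carries across the blood-brain barrier and into astrocytes. In astrocytes the deiodinase Dio2 converts T4 to the active hormone T3, which acts in neurons and other cells through the nuclear receptors encoded by Thra and Thrb. Hr and Klf9 are target genes that T3 raises, and the cytosolic protein Crym binds T3 inside the cell.

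RNA came from the dorsal hippocampus of 55 adult mice on a C57/BL6j background, with 1 library per mouse. Wild-type (WT) mice were compared with knockout (KO) mice, in which Cnih3, an auxiliary protein of AMPA receptors, lacks an exon. Females were staged by vaginal cytology. The WT mice were 5 males (12 to 23.71 weeks old) and females of 4 stages of the estrous cycle: 4 in metestrus (13 to 18.57 weeks), 6 in diestrus (11.71 to 17.14 weeks), 5 in proestrus (12 to 18.71 weeks) and 7 in estrus (16.29 to 20.29 weeks). The KO mice were 7 males (18.29 to 23.71 weeks) and females, of which 5 were in metestrus (13.29 to 22.57 weeks), 6 in diestrus (10.86 to 23.43 weeks), 4 in proestrus (13 to 14.57 weeks) and 6 in estrus (13 to 20.71 weeks). All 28 KO mice were listed with Cnih3 x B6 parents, as were 11 WT mice. The other 16 WT mice were listed with B6 x B6 parents, so that parentage and genotype are partly confounded. The paper describes matings between Cnih3 mutants for the KO mice, so the label may not name the exact cross. The Cnih3 x B6 label was held by 4 of 6 WT diestrus mice and 4 of 5 WT males. It was held by 1 of 7 mice in WT estrus, 1 of 5 in WT proestrus and 1 of 4 in WT metestrus. Parentage is thus also partly confounded with stage among WT mice, and with age in WT diestrus, where the younger mice held the label more often.

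Total counts per library ranged from 25881295 to 63547098. Cnih3 was at 21.6 to 62.5 CPM (read counts scaled to library size) in WT and 21.6 to 47.8 CPM in KO mice, and lower in KO by 0.37 on the log2 scale outside diestrus (KO minus WT -0.37 ± 0.09, SE; FDR = 0.0116, limma). This count covers the whole gene and so checks the genotype labels only in part. Summed CA1 and dentate granule cell markers of the hippocampus were present in every library, at 921.2 to 1313 CPM and 227.7 to 400.3 CPM. The 7 diestrus mice under 14 weeks of age (WT mice 548, 549 and 569, KO mice 532, 643, 644 and 645) stood apart. Their 10 astrocyte markers summed to 4403 to 4937 CPM, against 2744 to 3810 CPM in the other 48 mice apart from KO estrus mouse 12_1 at 4735 CPM, and their 7 nuclear-retained RNAs summed to 581.7 to 983.1 CPM, a range entered by 1 other mouse, WT male 1949 at 897.9 CPM. Another 10 mice under 14 weeks were in other groups. Within diestrus, age and whatever else set these 7 libraries apart cannot be told apart, and in bulk tissue fewer cells of a type and less RNA per cell cannot be told apart.

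Of the 4 members that passed a test in any comparison (Dio2, Slco1c1, Klf9 and Crym), 3 had a RefSeq promoter (GRCm38.p6), and the 250 bases before each start are shown so that the regulatory sequence of the genes that differed can be compared. The motifs searched, on both strands, were the nuclear receptor binding letters AGGTCA, the cAMP response element TGACGTCA, the shorter TGACG, which the full element holds on both strands, and the TATA box letters TATAAA. Capitals mark the matches.
Dio2, minus strand, chr12:90739039-90739288: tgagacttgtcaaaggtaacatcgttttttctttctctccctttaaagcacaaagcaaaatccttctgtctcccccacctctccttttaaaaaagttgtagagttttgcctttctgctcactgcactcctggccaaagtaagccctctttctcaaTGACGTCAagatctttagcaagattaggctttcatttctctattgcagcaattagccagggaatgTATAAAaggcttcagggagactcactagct
Slco1c1, plus strand, chr6:141524104-141524353: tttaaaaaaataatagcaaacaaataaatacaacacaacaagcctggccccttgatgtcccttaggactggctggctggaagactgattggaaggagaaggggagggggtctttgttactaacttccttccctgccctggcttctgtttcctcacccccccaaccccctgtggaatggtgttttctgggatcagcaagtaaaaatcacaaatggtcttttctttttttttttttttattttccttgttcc
Klf9, plus strand, chr19:23140976-23141225: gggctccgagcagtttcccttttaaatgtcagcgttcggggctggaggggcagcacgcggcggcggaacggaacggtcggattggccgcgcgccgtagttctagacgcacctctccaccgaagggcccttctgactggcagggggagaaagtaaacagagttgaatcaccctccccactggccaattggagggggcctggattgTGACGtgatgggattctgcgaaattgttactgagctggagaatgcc
The Dio2 promoter held TGACGTCA from 95 to 88 bases before the start, and 1.55% of 32851 promoters of this length hold that motif. It also held TATAAA from 30 to 25 bases before the start, as 12.4% of promoters do anywhere in the window. Klf9 held TGACG from 46 to 42 bases before the start, a motif in 17.8% of promoters. No motif matched in the Slco1c1 window, and AGGTCA, in 14% of promoters, matched in none of the 3. A match describes the letters only.

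In the GENCODE annotation of GRCm38, Dio2 is on chromosome 12 (90724552 to 90738438, minus strand), Slco1c1 on chromosome 6 (141524368 to 141570177, plus), Crym on chromosome 7 (120186380 to 120202111, minus), Thra on chromosome 11 (98740638 to 98769006, plus), Thrb on chromosome 14 (17660261 to 18038090, plus), Hr on chromosome 14 (70552212 to 70573548, plus) and Klf9 on chromosome 19 (23141226 to 23168134, plus). For Dio2 and Slco1c1 the RefSeq start, from which the motif positions above count, lies outside these bounds. The library kit does not mark strand, so reads in overlaps cannot be assigned. Thra shares 263 exon bases (5.7% of its exon bases) with the opposite-strand gene Nr1d1, and Dio2 shares 100 (1.72%) with Gm26512.

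Levels between genes were compared as median CPM over the 55 mice per kilobase of exon. Crym was the most abundant at 93.6 CPM per kilobase, then Klf9 at 71.2 and Thra at 49.9. Thrb followed at 9.77, Slco1c1 at 2.41 and Dio2 at 2.33. Hr had the lowest level, 0.746 CPM per kilobase, and its counts per library were 105 to 491.

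**Figure D1:**
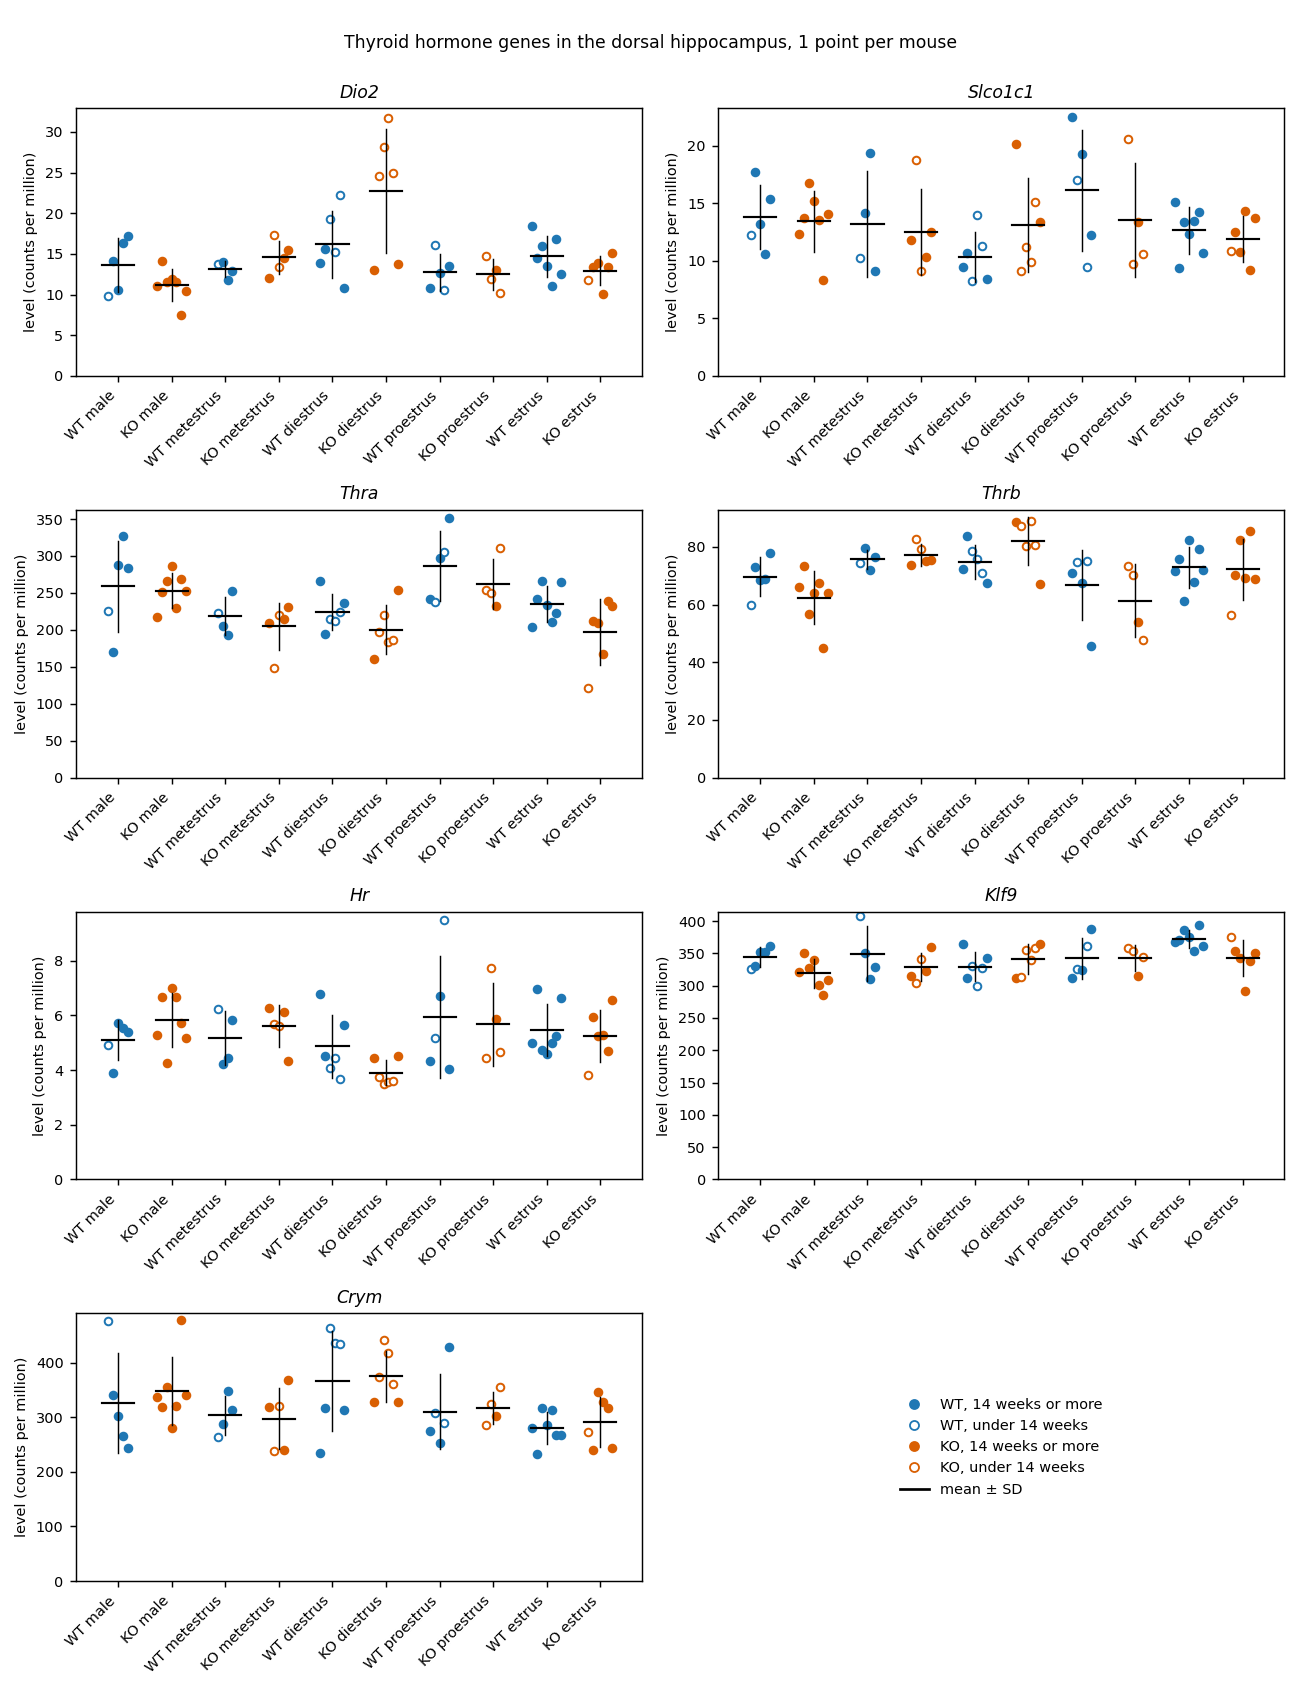
Level of each gene in every mouse (y axis, CPM; x axis, the 10 groups), with open points for mice under 14 weeks and black lines for the mean ± SD. Dio2 is at 24.6 to 31.7 CPM in the 4 younger KO diestrus mice and at most 22.3 CPM in every other mouse.

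Slco1c1, the T4 transporter of brain endothelium and astrocytes, was lower in WT diestrus than in WT proestrus. In WT diestrus it was 8.23, 14.0 and 11.3 CPM in mice 548, 549 and 569 and 9.50, 10.7 and 8.40 CPM in mice 2_2, 380_4 and 8_1. In WT proestrus it was 22.5, 17.1, 19.3, 9.49 and 12.3 CPM in mice 2_3, 20_2, 4_1, 5_4 and 8_2. Proestrus had the 3 highest levels, and the other 2 mice lay among the diestrus mice. The log2 difference of diestrus minus proestrus was -0.70 ± 0.23 (SE; 1.62-fold; FDR = 0.0449, limma). It lost its call without any one of WT proestrus mice 2_3, 20_2 and 4_1 (FDR 0.0627 to 0.149) or WT diestrus mice 548, 549 and 569 (FDR 0.124 to 0.147), and in 7 of 9 other settings, among them edgeR (FDR = 0.239), DESeq2 (adjusted p = 0.167) and only mice with Cnih3 x B6 parents, which leave 1 WT proestrus mouse (-0.126, FDR = 0.851). Summed choroid plexus markers were 1412, 729.1 and 1452 CPM in proestrus mice 2_3, 20_2 and 4_1, the mice with the highest Slco1c1, and 55.6 and 267.3 CPM in mice 5_4 and 8_2. In WT diestrus they were 50.9 to 1160 CPM with a median of 198.7, and the median log2 difference of diestrus minus proestrus over the 10 markers was -1.49, with 0 called. In the same comparison 8 of 10 mature oligodendrocyte markers and 5 of 7 nuclear-retained RNAs were called lower in diestrus, and 1 of the latter higher. The part of these in the result was not tested. In KO diestrus Slco1c1 was 9.11 to 20.2 CPM, a log2 difference of -0.23 ± 0.17 from KO males.

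Dio2, the enzyme that makes T3 in astrocytes, was at its highest in the younger KO diestrus mice, the group for which the set was chosen. It was 24.6, 28.2, 31.7 and 24.9 CPM in mice 532, 643, 644 and 645, all under 14 weeks, and 13.1 and 13.8 CPM in the older mice 2592 and 7_1. KO males ranged from 7.53 to 14.1 CPM with a median of 11.6. The 4 younger mice were above every KO male, and the 2 older mice lay inside the male range. The log2 difference of KO diestrus from KO males was 1.13 ± 0.13 (SE; 2.18-fold), from KO metestrus 0.82 ± 0.14, from KO proestrus 0.95 ± 0.15 and from KO estrus 0.89 ± 0.14. With only the 2 older KO diestrus mice in the fit, the difference from KO males was 0.226. Younger KO diestrus mice were 0.99 ± 0.19 above older ones, and KO diestrus was 0.64 ± 0.16 above WT diestrus, on the log2 scale.

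In WT diestrus Dio2 was called higher in the younger mice. The gene was chosen on KO diestrus mice, but the split by age was made with earlier results of these same mice known, so the tests between ages are not independent evidence. It was 19.4, 15.2 and 22.3 CPM in mice 548, 549 and 569, all under 14 weeks, and 13.9, 15.6 and 10.8 CPM in the older mice 2_2, 380_4 and 8_1. The ages overlapped in 1 pair, mouse 549 being below mouse 380_4. The log2 difference was 0.48 ± 0.17 (SE; 1.39-fold; FDR = 0.0269, limma), in a comparison in which 30.9% of all genes passed. The call was lost without mouse 569 (0.40, FDR = 0.0879) or mouse 8_1 (0.30, FDR = 0.268). It was also lost in edgeR (0.50, FDR = 0.055), without quality weights (0.49, FDR = 0.0556) and with only mice of Cnih3 x B6 parents, which leave 1 older mouse (0.76, FDR = 0.106), and it held in the other 3 settings, DESeq2 among them (adjusted p = 0.0339). Outside diestrus Dio2 was 9.85 to 17.4 CPM in the 10 younger mice and 7.53 to 18.4 CPM in the 33 older ones, a log2 difference of -0.002 ± 0.10 (95% interval -0.19 to 0.18, FDR = 0.995).

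The order of group means for Dio2 began with KO males at 11.2 ± 1.97 CPM (SD, n = 7), KO proestrus at 12.5 ± 1.91 (n = 4), WT proestrus at 12.7 ± 2.23 (n = 5) and KO estrus at 13.0 ± 1.74 (n = 6). It went on with WT metestrus at 13.1 ± 0.99 (n = 4), WT males at 13.6 ± 3.33 (n = 5), KO metestrus at 14.6 ± 2.04 (n = 5) and WT estrus at 14.7 ± 2.57 (n = 7). WT diestrus, at 16.2 ± 4.09 (n = 6), and KO diestrus, at 22.7 ± 7.63 (n = 6), came last. Neighbours differed by less than the SD of either group, except that KO diestrus lay above WT diestrus by more than the SD of WT diestrus.

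**Figure D2:**
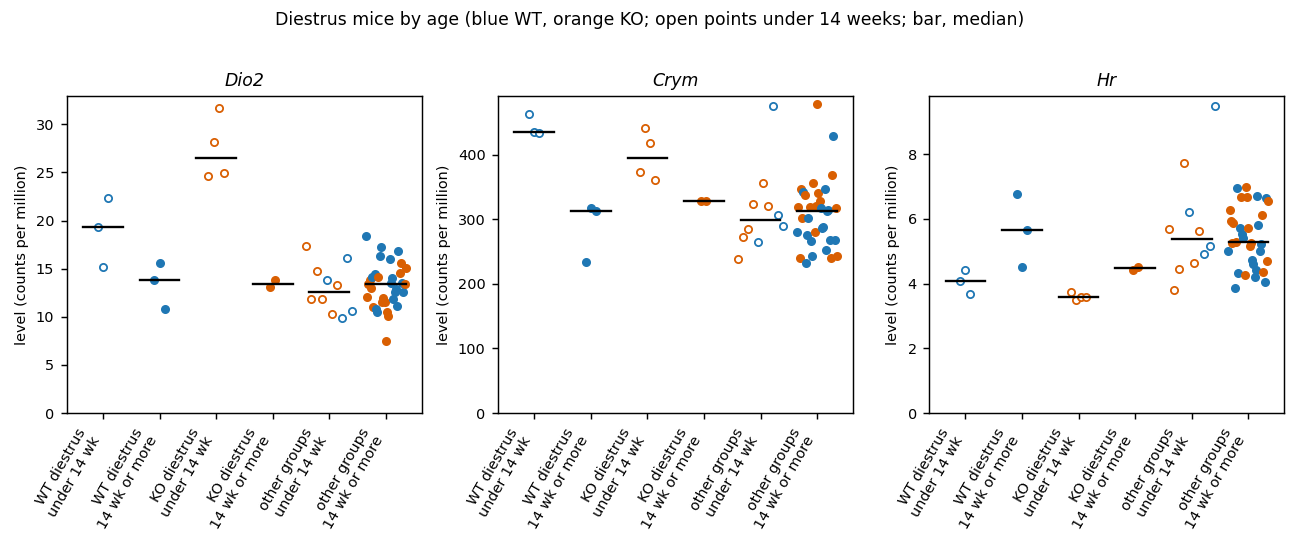
Dio2, Crym and Hr in diestrus mice by age and in the other 8 groups together (y axis, CPM; points, mice; bars, medians). The Dio2 median is 26.5 CPM in younger KO and 19.4 CPM in younger WT diestrus mice, and 12.6 to 13.9 CPM in the other 4 sets.

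Astrocyte markers were higher in the same mice as Dio2, with 4 of 10 called higher and 0 lower in younger WT diestrus mice. Of all 16168 genes 30.9% were called there, 2198 higher and 2790 lower. Dio2 per 1000 CPM of summed astrocyte markers was 5.47 to 6.49 CPM in the 4 younger KO diestrus mice and 3.12 to 4.72 in the 3 younger WT ones. It was 3.43 to 4.44 in older KO and 3.51 to 5.02 in older WT diestrus mice, and outside diestrus 2.50 to 5.09 in younger and 2.41 to 5.12 in older mice. By this ratio the younger WT diestrus mice lay inside the range of the other mice and the younger KO diestrus mice, on which the set was chosen, above it. The sum is weighted to its most abundant markers, with medians of 1270 CPM for Aldoc and 646 CPM for Slc1a2 against 32.5 CPM for Aldh1l1. The ratio is therefore not a measure of astrocyte content, and it was not tested. Across the 55 libraries, with group means removed, Dio2 and the summed astrocyte markers had Pearson r = 0.46, a description over libraries that share tissue and depth. The KO diestrus mice, on which the set was chosen, are among these libraries. Astrocytes were not alone in this: Dio2 had r = -0.47 with the sum of nuclear-retained RNAs, 0.39 with choroid plexus and 0.375 with neocortical markers.

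**Figure D3:**
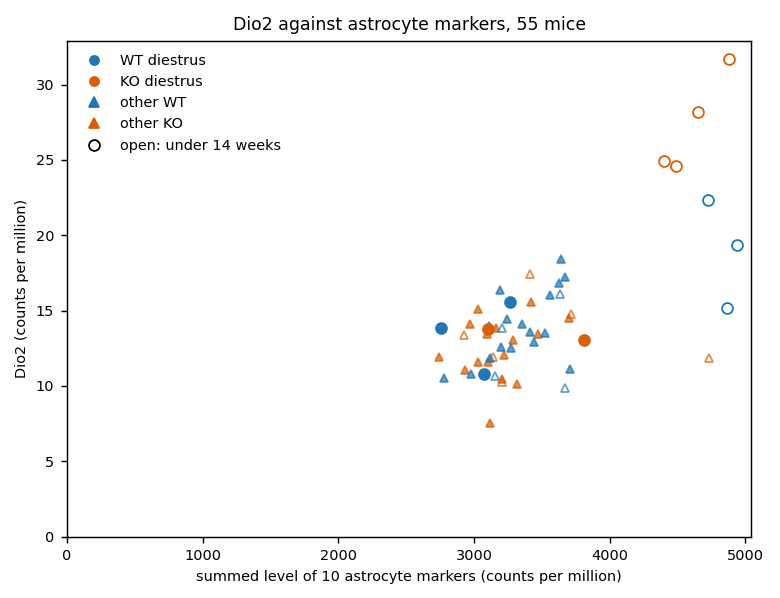
Dio2 (y axis, CPM) against the summed level of 10 astrocyte markers (x axis, CPM), 1 point per mouse (circles, diestrus; triangles, other groups; open, under 14 weeks). The 7 younger diestrus mice lie at 4403 to 4937 CPM of markers, and the 4 KO mice among them have Dio2 at 24.6 to 31.7 CPM.

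Crym, the T3-binding protein of the cytosol, was also called higher in the younger WT diestrus mice. It was 463.5, 435.5 and 434.0 CPM in mice 548, 549 and 569 and 233.8, 317.6 and 313.4 CPM in mice 2_2, 380_4 and 8_1, and the ages did not overlap. The log2 difference was 0.58 ± 0.14 (SE; FDR = 0.00128, limma), and it held without each of the 6 mice in turn (0.50 to 0.72, highest FDR 0.00989). Among WT diestrus mice with Cnih3 x B6 parents, of which there were 4, it was 0.51 (FDR = 0.166). In KO diestrus Crym was 373.2, 440.8, 417.2 and 360.5 CPM in the younger mice 532, 643, 644 and 645 and 328.8 and 328.1 CPM in the older mice 2592 and 7_1. Outside diestrus it was 238.8 to 475.4 CPM in younger and 232.0 to 477.7 CPM in older mice, a log2 difference of -0.01 ± 0.08 (FDR = 0.983).

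Between stages Crym was higher in WT diestrus than in WT estrus (log2 difference 0.46 ± 0.12, FDR = 0.00525) and WT proestrus (0.46 ± 0.13, FDR = 0.0232), in limma. The 7 WT estrus mice were at 232.0 to 317.5 CPM with a median of 280.0, and WT proestrus mice 2_3, 20_2, 4_1, 5_4 and 8_2 were at 275.0, 307.0, 252.3, 289.3 and 428.2 CPM. The 3 younger diestrus mice were above all of these, and the 3 older ones were not. With only the older diestrus mice the differences were 0.09 (FDR = 0.872) and 0.11 (FDR = 0.895). Both calls were lost without any one of mice 548, 549 and 569, with the difference from estrus at 0.22 to 0.23 (FDR 0.315 to 0.343) and that from proestrus at 0.23 to 0.25 (FDR 0.437 to 0.478), the second also without WT proestrus mouse 4_1 (0.38, FDR = 0.113), and in edgeR (FDR = 0.146 and 0.506). Of 9 other settings, edgeR and the older mice among them, 4 kept the call against estrus and 2 kept that against proestrus. Dentate granule cell markers were called lower in WT diestrus than in WT estrus (4 of 6), and within groups Crym had r = -0.68 with their sum and r = 0.62 with that of CA1 markers over 55 libraries. Their part in the result was not tested.

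Thra and Thrb, the T3 receptors, passed no test of this model. Thra group means ran from 197.0 ± 44.6 CPM (SD, n = 6) in KO estrus to 286.7 ± 47.2 (n = 5) in WT proestrus. Its difference of largest size among those tested was WT proestrus minus WT metestrus, 0.33 ± 0.12 on the log2 scale (FDR = 0.151). In KO diestrus Thra was 160.9 to 254.1 CPM, a log2 difference of -0.33 ± 0.10 from KO males, which were at 217.2 to 287.1 CPM. Thrb means ran from 61.4 ± 12.5 CPM (n = 4) in KO proestrus to 82.1 ± 8.30 (n = 6) in KO diestrus, and its difference of largest size among those tested was KO metestrus minus KO males, 0.24 ± 0.08 (FDR = 0.161). KO diestrus was 0.37 ± 0.07 above KO males for Thrb. Within groups Thrb had r = 0.70 with the sum of neocortical markers.

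Hr, a corepressor that T3 induces in brain, was at 3.51 to 4.43 CPM in the younger diestrus mice, a range that overlapped mice of other groups. In WT diestrus it was 4.09, 4.43 and 3.69 CPM in mice 548, 549 and 569 and 6.78, 4.52 and 5.66 CPM in mice 2_2, 380_4 and 8_1, so the ages did not overlap. The log2 difference of -0.38 ± 0.22 (SE) did not pass (FDR = 0.188, limma). In KO diestrus it was 3.75, 3.51, 3.58 and 3.60 CPM in mice 532, 643, 644 and 645 and 4.43 and 4.51 CPM in mice 2592 and 7_1. KO males were at 4.27 to 7.00 CPM with a median of 5.72, and the log2 difference of KO diestrus from them was -0.63 ± 0.15, opposite in sign to that of Dio2. Against WT diestrus the difference was -0.29 ± 0.18. Outside diestrus Hr was 3.80 to 9.49 CPM in the 10 younger and 3.88 to 7.00 CPM in the 33 older mice. The log2 difference of younger minus older there was 0.145 ± 0.127 (FDR = 0.624, limma).

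Klf9, a transcription factor that T3 and glucocorticoids induce, was higher in WT estrus than in WT diestrus and WT proestrus by small amounts. The 7 WT estrus mice were at 354.2 to 393.9 CPM with a median of 370.1. The 6 WT diestrus mice were at 299.9 to 365.2 CPM with a median of 328.8, and WT proestrus mice 2_3, 20_2, 4_1, 5_4 and 8_2 were at 312.4, 325.8, 324.1, 361.5 and 387.3 CPM. Both overlapped with estrus. The log2 difference of diestrus minus estrus was -0.20 ± 0.06 (SE; FDR = 0.0151) and of proestrus minus estrus -0.18 ± 0.06 (FDR = 0.0418), in limma. The first was lost without any one of WT diestrus mice 548, 549 and 569 (FDR 0.22 to 0.274) and in edgeR (FDR = 0.154). The second was lost without any one of WT proestrus mice 2_3, 20_2 and 4_1 (FDR 0.0924 to 0.369) or WT estrus mice 1_1, 3_1, 3_2 and 5_3 (FDR 0.065 to 0.131) and in edgeR (FDR = 0.489), and among mice with Cnih3 x B6 parents, of which there is 1 in WT proestrus and 1 in WT estrus, the difference was 0.08, a comparison of single mice. Each of the calls against estrus held in 4 of 9 other settings. KO diestrus mice were at 312.3 to 365.4 CPM, 0.09 ± 0.05 above KO males on the log2 scale.

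Over the 6 pairs of WT stages 5 of 42 tests passed in limma, 13 had an unadjusted p under 0.05, and edgeR and DESeq2 called 0. Of all genes edgeR called 0, 1 and 2 in diestrus against metestrus, proestrus and estrus. The share was not counted for its other pairs or for DESeq2, so these zeros are not a result about the members. In limma 0 of 7 members passed in diestrus minus metestrus beside 7.24% of all genes, in diestrus minus proestrus 2 (Slco1c1 and Crym) beside 9.66%, and in diestrus minus estrus 2 (Klf9 and Crym) beside 22.1%. In proestrus minus estrus 1 passed (Klf9) beside 6.82%, in proestrus minus metestrus 0 beside 0.767%, and in estrus minus metestrus 0 beside 0% (705 genes at an unadjusted p under 0.05). Dio2 differed between WT diestrus and the other stages by 0.27 ± 0.17 (metestrus, FDR = 0.313), 0.38 ± 0.18 (proestrus, FDR = 0.155) and 0.08 ± 0.16 (estrus, FDR = 0.737). With only the younger diestrus mice 10 tests passed, with Dio2 at 0.485 against metestrus and 0.591 against proestrus. These mice were split off with their earlier results known, and the share of all genes was not counted, so this is a description. With only the older diestrus mice 1 test passed. It was not in a comparison with diestrus, where 0 of all genes passed.

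Against WT males 0 of 35 tests passed in limma, edgeR or DESeq2, and 3 had an unadjusted p under 0.05. The share of all genes that passed was 0.0309% for metestrus, 0.068% for diestrus, 0.0309% for proestrus, 0.0495% for estrus and 0.0309% for females of the 4 stages together. Dio2 was at 9.85, 14.1, 10.5, 16.4 and 17.2 CPM in WT males 19_1, 1949, 2015, 2018 and 2052, a range that held 4 of the 6 WT diestrus mice, and the log2 difference of WT diestrus was 0.24 ± 0.20 (FDR = 0.523). Without WT male 1949 there were 5 calls, without male 19_1 or 2015 there were 2 each, and without WT diestrus mouse 2_2, 380_4 or 8_1 there was 1. The share of all genes was not counted in these fits, so the counts are not a result about the members.

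Among the KO stages other than diestrus 0 of 21 tests passed in limma, edgeR or DESeq2 and 3 had an unadjusted p under 0.05, beside 4.37% of all genes in proestrus minus metestrus, 0.507% in proestrus minus estrus and 0% in estrus minus metestrus (1367 genes at an unadjusted p under 0.05). DESeq2 gave no adjusted p for 6 of these tests. Against KO males 0 of 21 passed in the 3 tools and 6 had an unadjusted p under 0.05, beside 0.359% of all genes in metestrus, 0.315% in proestrus and 7.66% in estrus. Dio2 differed from KO males by 0.30 ± 0.15 in metestrus (FDR = 0.389), 0.18 ± 0.16 in proestrus (FDR = 0.565) and 0.23 ± 0.15 in estrus (FDR = 0.367) on the log2 scale. Without KO estrus mouse 8_4 there was 1 call, in a fit where the share of all genes was not counted.

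Between genotypes outside diestrus 0 of 35 tests passed in limma, edgeR or DESeq2, and 3 had an unadjusted p under 0.05. The share of all genes was 0.0247% in metestrus, 0.315% in proestrus, 0.179% in estrus, 0.00619% in males and 2.23% for the mean of the 4. Over that mean Dio2 differed by -0.07 ± 0.08 (log2, KO minus WT; 95% interval -0.23 to 0.10). Among mice with Cnih3 x B6 parents, which leave 1 WT mouse each in metestrus, proestrus and estrus, Thra differed by -0.30 and Klf9 by -0.18 over the mean of the 4. The share of all genes was not counted in that fit, so these values are a description. The genotype by stage interactions, each against males, gave 0 of 21 calls in the 3 tools and 1 unadjusted p under 0.05, beside 0% of all genes in metestrus, proestrus and estrus, where 519, 1616 and 394 genes had an unadjusted p under 0.05.

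**Figure D4:**
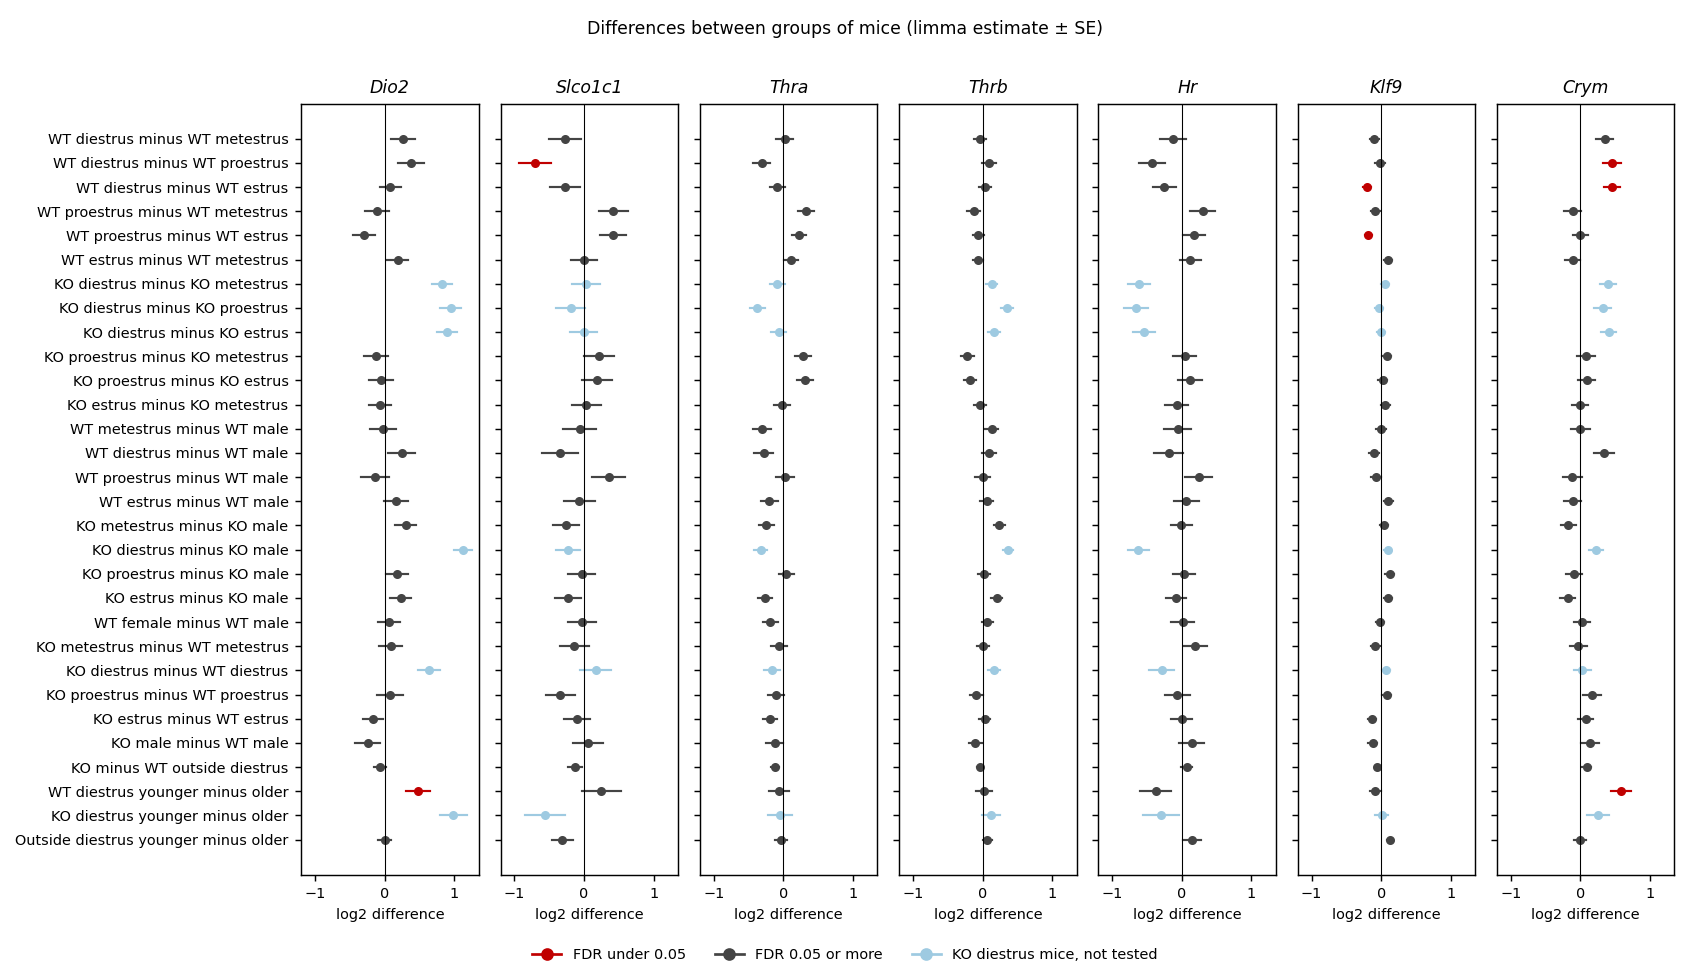
Log2 difference ± SE of each gene (x axis) in every comparison other than the interactions (y axis), red where limma's FDR was under 0.05, dark grey otherwise and pale blue for comparisons with KO diestrus mice, which were not tested. Dio2 lies at 0.64 to 1.13 in the pale blue comparisons, and 7 of the tested values are red.

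By age, 2 of 7 members passed between younger and older WT diestrus mice (Dio2 and Crym, beside 30.9% of all genes), and the median absolute log2 difference was 0.25 over the members and 0.30 over all genes. Outside diestrus 0 of 7 passed in limma, edgeR or DESeq2, beside 0.309% of all genes, and 2 had an unadjusted p under 0.05: Klf9, at 0.13 ± 0.04 (younger minus older, log2; FDR = 0.131), and Slco1c1, at -0.31 ± 0.15 (FDR = 0.3).

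Beyond the 7 members, 38 genes of the pathway were listed and 33 tested, since Dio1, Dio3, Serpina7, Alb and Shh were below the filter on low counts. Between younger and older WT diestrus mice 2 of the 33 rose and 9 fell, near the 30.9% of all genes called there (2198 higher and 2790 lower), with a median log2 difference of -0.13 against -0.03 over all genes. The counts by role below are a description and show nothing particular to the pathway. Of 6 genes for transport into cells 4 fell, and of 4 for deiodination and iodide 2 fell. One of these was Wsb1, which encodes a ubiquitin ligase subunit that targets the Dio2 protein (-1.47 ± 0.19, FDR = 1.69e-07). Of 11 genes known to respond to T3 in brain 1 rose and 2 fell, among them Reln, a secreted protein of interneurons (-1.50 ± 0.23, FDR = 3.01e-06). Of 11 receptor partners and cofactors 1 rose and 1 fell, and the 1 binding protein tested did not pass. In the same mice 6 of 10 mature oligodendrocyte markers and 5 of 7 nuclear-retained RNAs fell, and their part in these values was not tested.

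**Figure D5:**
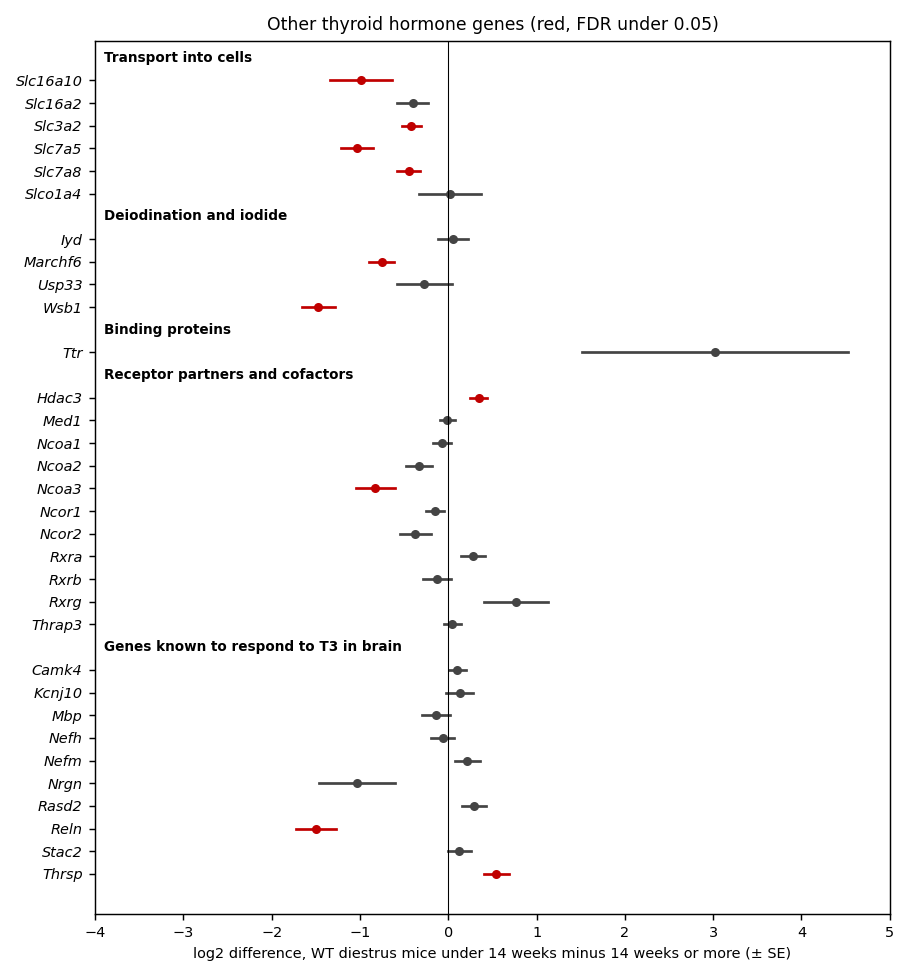
Log2 difference ± SE of the other pathway genes reported here between WT diestrus mice under 14 weeks and of 14 weeks or more (x axis; y axis, genes by role), red where limma's FDR was under 0.05. Wsb1 lies at -1.47 and Reln at -1.50.

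Wsb1 was also lower in WT diestrus than in metestrus (-1.11 ± 0.22, FDR = 0.00525), proestrus (-0.83 ± 0.23, FDR = 0.0185) and estrus (-0.95 ± 0.20, FDR = 0.00141). Of the 33 genes, 2 rose and 6 fell against metestrus, where 7.24% of all genes were called (267 higher and 903 lower). Against proestrus 1 rose and 5 fell, beside 9.66% of all genes (431 higher and 1131 lower), and against estrus 2 rose and 9 fell, beside 22.1% (1463 higher and 2113 lower). Falls outnumbered rises over all genes too. Of 7 nuclear-retained RNAs 6 were called lower in diestrus against metestrus, 5 against proestrus (1 higher) and 6 against estrus. Of 10 mature oligodendrocyte markers 5, 8 and 6 were called lower, in the same order. Their part in the values of Wsb1 and the other genes was not tested. The genes called against metestrus included Slc7a5, an amino acid transporter that also carries thyroid hormone (-0.74 ± 0.17, FDR = 0.0104), and Camk4, a neuronal kinase (0.34 ± 0.09, FDR = 0.019). Against proestrus they included Slc3a2, the heavy chain that pairs with Slc7a5 (-0.43 ± 0.11, FDR = 0.00949), and against estrus Reln (-1.11 ± 0.23, FDR = 0.000987) and Slc7a8, another amino acid and thyroid hormone transporter (-0.53 ± 0.11, FDR = 0.00111). With only the older diestrus mice 0 of the 33, and 0 of all genes, passed in these 3 comparisons. In edgeR 0 of the 33 passed in them, but of all genes it called only 0, 1 and 2 against metestrus, proestrus and estrus. These zeros are therefore not a result about the pathway genes. Between the ages of WT diestrus mice 2 of the 33 rose and 10 fell in edgeR, beside 3812 of all genes called. These counts too are a description.

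In the other comparisons few of the 33 passed. Slc3a2 was lower in younger than in older mice outside diestrus (-0.30 ± 0.06, FDR = 0.0135), in KO metestrus than in KO males (-0.37 ± 0.09, FDR = 0.0354) and in KO estrus than in KO males (-0.37 ± 0.09, FDR = 0.00736). In the last comparison, where 7.66% of all genes were called (699 higher and 540 lower), 4 of 11 receptor partners and cofactors were higher, among them the coactivator Ncoa1 (0.28 ± 0.07, FDR = 0.0151) and the corepressor Ncor1 (0.25 ± 0.07, FDR = 0.0213). Slco1a4, a transporter of brain endothelium, was higher in KO proestrus than in KO metestrus (1.1 ± 0.30, FDR = 0.0318), where 2 of 10 endothelial markers were also called higher. In WT proestrus against WT estrus Ttr, the T4 carrier of the choroid plexus (4.59 ± 1.2, FDR = 0.0142), and Nrgn, a postsynaptic calmodulin-binding protein (1.08 ± 0.31, FDR = 0.0247), were higher and Ncor1 was lower (-0.29 ± 0.07, FDR = 0.0097). There 9 of 10 choroid plexus markers were called higher, a list that holds Ttr.

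Likeness to each member was measured as Pearson r over the 55 libraries with group means removed, a description across libraries that share dissection and RNA quality. The KO diestrus mice, on which the set was chosen, are among them, and the difference between their younger and older mice is not removed. The genes most like Dio2 were Kif5a (r = 0.80), Paqr8 (0.75), Zfp365 (0.74), Tns3 (0.72) and Sdc4 (0.72). For Slco1c1 they were Vcam1 (0.79) and Lamp2 (0.67), for Crym Snrpn (0.91) and Idh3g (0.91), and for Thra Epn1 (0.91) and Mast3 (0.89). For Thrb they were Inpp4a (0.79) and Ppm1k (0.79), for Hr F730043M19Rik (0.68) and Sfswap (0.68), and for Klf9 Hnrnpa0 (0.73) and Tomm70a (0.71). Among the members the pairs with the largest absolute r were Hr with Crym (-0.52), Slco1c1 with Thra (-0.43) and Thra with Klf9 (0.39), and Dio2 had r = 0.37 with Thrb and -0.25 with Hr. Slco1c1 had r = 0.46 with the sum of choroid plexus markers and 0.45 with that of endothelial markers.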

How the data were processed

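Hippocampi were lysed in NP-40 buffer, and cDNA of the supernatant was made with a SMARTer kit that does not mark strand. The authors aligned reads to GRCm38 with STAR 2.7.9a and deposited raw gene counts from featureCounts 2.0.3, which were tested here. The log2 expression values that the authors deposited served only as a check. Other tables were not analysed here, and 1 column that matches no listed mouse was unused.

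The filter on low counts asked for more than 1 CPM in 10 or more libraries, and 5 rRNA genes were dropped. TMM-scaled counts were fitted with voomWithQualityWeights in limma 3.58.1 under R 4.3.3, with a mean per group and a Benjamini-Hochberg FDR threshold of 0.05 over 16168 genes. Log2 CPM made this way differed from the deposited values by at most 5e-14. Every ± is an SE for a log2 difference and an SD for a mean. The age comparisons split diestrus mice at 14 weeks, or added an age term over the 43 mice outside diestrus. Alternatives included edgeR 4.0.16 and DESeq2 1.42.0, which were also tested on simulated data. Depth limits were read from counts, and p-values measure the spread between single mice.

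The members, gene lists and age split were chosen with earlier results of these data known. All members are named, with up to 3 pathway genes of smallest FDR per comparison, and the most alike genes, apart from 1 pathway gene that is counted but not reported here.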

Additional observations from a re-analysis of the deposited data

Results flagged for a closer look

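Of 70 sets of a member and a group, 3 had a mouse far from the others of its group by Dixon's criterion, and chance alone sets apart about 1 in 20. Thra was at 148.8 CPM in KO metestrus mouse 11_1, against 209.2 to 230.3 CPM in the other mice of that group. Thrb was at 67.16 CPM in KO diestrus mouse 7_1, against 80.27 to 88.88 CPM in the others. It was at 45.68 CPM in WT proestrus mouse 8_2, against 67.31 to 75.05 CPM.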

How the results depend on the processing

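No paired analysis was possible because each full mouse name occurs once, so the groups share none; the first part of some names recurs, but the labels do not say what it marks. Of 246 alternatives for single results of a member, 172 kept the side of the threshold, 57 lost the call, 15 gained one and 2 reversed, and the cause was not tested. Direction was compared only where the main fit or the alternative passed, so the 172 may hold sign changes between values that both failed. The reversals came with mice of Cnih3 x B6 parents alone: Klf9 in WT proestrus minus estrus at 0.082 and Crym in WT proestrus minus males at 0.64. That setting leaves 1 WT mouse each in metestrus, proestrus and estrus, so its values there rest on single mice, assumed to vary like the other groups. Between WT stages the 5 calls became 0 in edgeR, DESeq2 and voom without quality weights, 2 without the filter, 3 with age as a covariate, 3 with Cnih3 x B6 parents, 1 with only older and 10 with only younger diestrus mice, and 1 to 10 with a mouse left out (1 without 548, 549 or 569, 2 without WT proestrus mouse 4_1, 8 without 380_4, 9 without 2_2, 10 without 8_1). Against WT males the 0 calls became 4 with Cnih3 x B6 parents and 2 with only younger diestrus mice, and 0 to 5 with a mouse left out; against KO males they were 0 to 1. Between genotypes they became 2 with Cnih3 x B6 parents. Between ages of WT diestrus mice the 2 calls became 1 in edgeR, 1 without quality weights, 0 with Cnih3 x B6 parents and 1 to 2 with a mouse left out. Dio2 in KO diestrus against KO males went from 1.13 to 0.226 with only older diestrus mice and was 1.05 to 1.19 with a mouse left out. Shares of all genes given above are those of limma where no other tool is named. The share was not counted with a mouse left out, with only younger diestrus mice or with Cnih3 x B6 parents. Nor was it counted in DESeq2, without the filter or with age as a covariate. Those counts describe the fits and not the members. The settings for the other pathway genes were chosen after seeing the data. The share of Thra reads on the TR alpha 2 transcript was not run. Hr rests on as few as 105 counts in a library.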
